A study of Homo sapiens with 12 samples.

Results

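The genes described encode 9 enzymes that work outside the cell, or at its surface, on nucleotides and peptides: NT5E, ENTPD1, ENTPD3, ENPP1, ENPP2, ADA, ANPEP, MME and DPP4. Their members on the array were the probe sets annotated to exactly 1 of these symbols, which gave 26 of the 41097 probe sets with a single gene symbol, and 9 of 19775 genes. Of the 26, 13 probe sets from 6 genes passed the filter on low values, which kept a probe set when its signal exceeded the median of its own array on at least 3 of the 12 arrays. No probe set of ENTPD3, ENPP2 or DPP4 passed. The genes were picked with the difference between the cell lines known, so that difference is described without a test, and only the response to the electric field was tested.

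The RNA came from CL1-0 and CL1-5, which are established human lung adenocarcinoma cell lines. Cells of each line grew overnight in a microfluidic chip in serum-containing medium, and were then kept for 2 h in serum-free medium at 0 or 300 mV/mm of direct-current electric field (dcEF). The 4 groups were therefore CL1-0 without field, CL1-0 under field, CL1-5 without field and CL1-5 under field, with 3 arrays each that the labels call biological replicates. All groups were lifted with trypsin, and the groups without field stayed in the chip for the same time.

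Extracellular ATP is taken down in steps by membrane enzymes. ENTPD1 (CD39) and ENTPD3 remove phosphates from ATP and ADP to give AMP, ENPP1 splits ATP directly into AMP and pyrophosphate and also hydrolyses extracellular cGAMP, and NT5E (CD73) turns AMP into adenosine. ADA, which occurs in the cytosol and on the cell surface, turns adenosine into inosine, and on human cells it is held at the surface by DPP4 (CD26). DPP4 is also a peptidase that clips dipeptides from the amino end of chemokines and hormones. ANPEP (CD13, aminopeptidase N) and MME (CD10, neprilysin) are zinc peptidases that trim or cut small peptides. ENPP2 (autotaxin) is a secreted relative of ENPP1 that makes lysophosphatidic acid.

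The DNA upstream of the start is shown for the 4 genes whose brightest probe set had higher signals in CL1-5 than in CL1-0, and they were picked by that difference. Each sequence is the 250 bases before a RefSeq start on GRCh38.p14, read 5' to 3' on the gene's strand, and capitals mark matches to the motif letters searched. MME has 4 such windows in the table, of which the one with the lowest coordinates is printed. The windows are NT5E at chr6:85449833-85450082 on the plus strand, ANPEP at chr15:89814853-89815102 and at chr15:89806629-89806878 on the minus strand, MME at chr3:155079422-155079671 on the plus strand and ENPP1 at chr6:131807770-131808019 on the plus strand.
NT5E: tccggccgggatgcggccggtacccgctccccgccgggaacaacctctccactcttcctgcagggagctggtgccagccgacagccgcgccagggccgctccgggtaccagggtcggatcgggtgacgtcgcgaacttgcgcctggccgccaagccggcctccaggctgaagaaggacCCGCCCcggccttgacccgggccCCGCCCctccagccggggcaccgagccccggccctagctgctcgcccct
ANPEP, first window: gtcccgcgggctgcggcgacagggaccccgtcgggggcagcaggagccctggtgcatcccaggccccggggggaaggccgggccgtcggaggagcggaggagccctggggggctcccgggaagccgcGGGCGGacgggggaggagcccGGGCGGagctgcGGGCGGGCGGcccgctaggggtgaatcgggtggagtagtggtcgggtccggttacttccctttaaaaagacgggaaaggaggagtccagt
ANPEP, second window: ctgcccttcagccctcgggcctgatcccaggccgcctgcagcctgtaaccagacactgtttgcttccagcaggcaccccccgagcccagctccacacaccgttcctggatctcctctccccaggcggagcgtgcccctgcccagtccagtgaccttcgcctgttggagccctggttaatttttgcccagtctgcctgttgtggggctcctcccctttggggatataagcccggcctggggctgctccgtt
MME: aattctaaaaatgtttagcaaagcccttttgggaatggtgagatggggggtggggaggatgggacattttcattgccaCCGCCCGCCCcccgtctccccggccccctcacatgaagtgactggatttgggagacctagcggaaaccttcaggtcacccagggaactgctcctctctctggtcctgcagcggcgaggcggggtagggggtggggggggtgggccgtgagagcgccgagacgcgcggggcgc
ENPP1: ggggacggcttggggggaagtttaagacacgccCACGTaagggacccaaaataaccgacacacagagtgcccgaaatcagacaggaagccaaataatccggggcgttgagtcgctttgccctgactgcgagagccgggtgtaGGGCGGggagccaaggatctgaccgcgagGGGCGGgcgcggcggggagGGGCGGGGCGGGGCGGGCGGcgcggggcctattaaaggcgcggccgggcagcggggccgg

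The motifs searched on both strands were GGGCGG for SP1, TGANTCA for AP-1, TGACGTCA for CRE, ACGTG for the HRE core, and the HNF1 palindrome. The SP1 letters occurred in 42.6% of the 35116 windows of this length in the table, those of AP-1 in 6.57%, those of CRE in 1.65%, those of the HRE core in 18.5% and those of HNF1 in 0.0057%. NT5E held 2 SP1 matches, whose first bases lie 72 and 49 bases before the start. The first ANPEP window held 4, the printed MME window 2 that overlap each other, and ENPP1 6, of which several overlap, besides 1 HRE core. The second ANPEP window held none of the 5 motifs. It had 64.4% G or C and 9 CpG dinucleotides, while the first ANPEP window had 74.0% and 26, and NT5E had 75.2% and 28. The medians over all windows were 58.0% and 11. SP1 matches were not particular to the 4 genes: the ADA window held 5, that of ENTPD3 4 and that of DPP4 2, while the ENTPD1 windows held none. Of the MME windows not printed, the one at chr3:155080069-155080318 held no SP1 match and 1 HRE core, and the others held 2 SP1 matches each. A window was found for 8 of the 9 genes, and a match describes letters only, not binding.

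Signals are in the deposited linear units, in which the median of an array ran from 60.7 to 72.4. That median is used below as the line between a measured and a low signal, because no detection calls accompany the values used. Replicate 1 of every group stood apart from replicates 2 and 3: the poly-A spike-in dap read 1.37 to 13.3 on those 4 arrays and 1644 to 2333 on the other 8, and an 18S ribosomal RNA probe set read 49.7 to 134 on those 4 and 5577 to 8406 on the other 8. Line differences and the main field changes are therefore also given without replicate 1. Of 7 epithelial markers, 5 exceeded the array median on all CL1-0 arrays and 3 on all CL1-5 arrays, and their summed signal was 3242 to 24983 in CL1-0 and 16381 to 32701 in CL1-5. KRT8 was higher in CL1-5 without overlap in both settings, at 211 to 2764 in CL1-0 and 2445 to 4068 in CL1-5. EPCAM and CDH1 were lower there, at 137.6 to 1539 and 183 to 1506 in CL1-0 against 16.3 to 56.2 and 16.4 to 177 in CL1-5. In CL1-0 without field, KRT8 read 211 in replicate 1 against 1880 and 1017 in the others. EPCAM read 138 there against 846 and 1539. Of 4 leukocyte markers on the array, PTPRC, CD14 and LYZ lay below the array median on all 12 arrays, and CD3E read 44.4 to 105 in CL1-0 and 40.7 to 114 in CL1-5, above the median on 3 of 6 arrays of each line.

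NT5E, the enzyme that makes adenosine, had the largest lower bound on the fold between the lines among the members. On its brightest probe set, 203939_at, the signals of CL1-0 were 17.7, 59.2 and 34.9 without field and 4.51, 60.9 and 45.2 under field. In CL1-5 they were 10302, 7560 and 6714 without field and 10330, 6757 and 7718 under field. Every CL1-0 array was below its array median and every CL1-5 array far above it. On the log2 scale the group means were 5.05 ± 0.87 and 4.53 ± 2.06 in CL1-0 against 12.98 ± 0.32 and 12.99 ± 0.31 in CL1-5 (SD, n = 3 each). With low signals raised to the array median, CL1-5 was at least 127-fold higher without field and at least 123-fold higher under field. In bulk RNA, fewer cells that express a gene and less RNA per cell cannot be told apart.

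The other 3 NT5E probe sets put the lines in the same order. Probe set 1553994_at read 2.19, 30.4 and 14.5 in CL1-0 without field, 20.6, 49 and 37.0 under field, and in CL1-5 567, 1255 and 1170 without field and 426, 1686 and 1224 under field. CL1-5 was thus at least 14.9-fold higher without field and at least 14.5-fold higher under field. Probe set 1553995_a_at ran from 1.4 to 5.5 in CL1-0, and in CL1-5 read 2921, 1815 and 1519 without field and 1083, 1794 and 1637 under field, at least 31.7-fold and 22.3-fold higher. Probe set 227486_at ran from 2.37 to 23.3 in CL1-0 and from 257 to 785 in CL1-5, at least 6.62-fold and 8.6-fold higher. All 4 probe sets lay below the array median on 6 of 6 CL1-0 arrays and above it on 6 of 6 CL1-5 arrays. Probe sets 1553994_at and 1553995_a_at are annotated to the same sequence record, so they are not separate evidence.

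**Figure D1:**
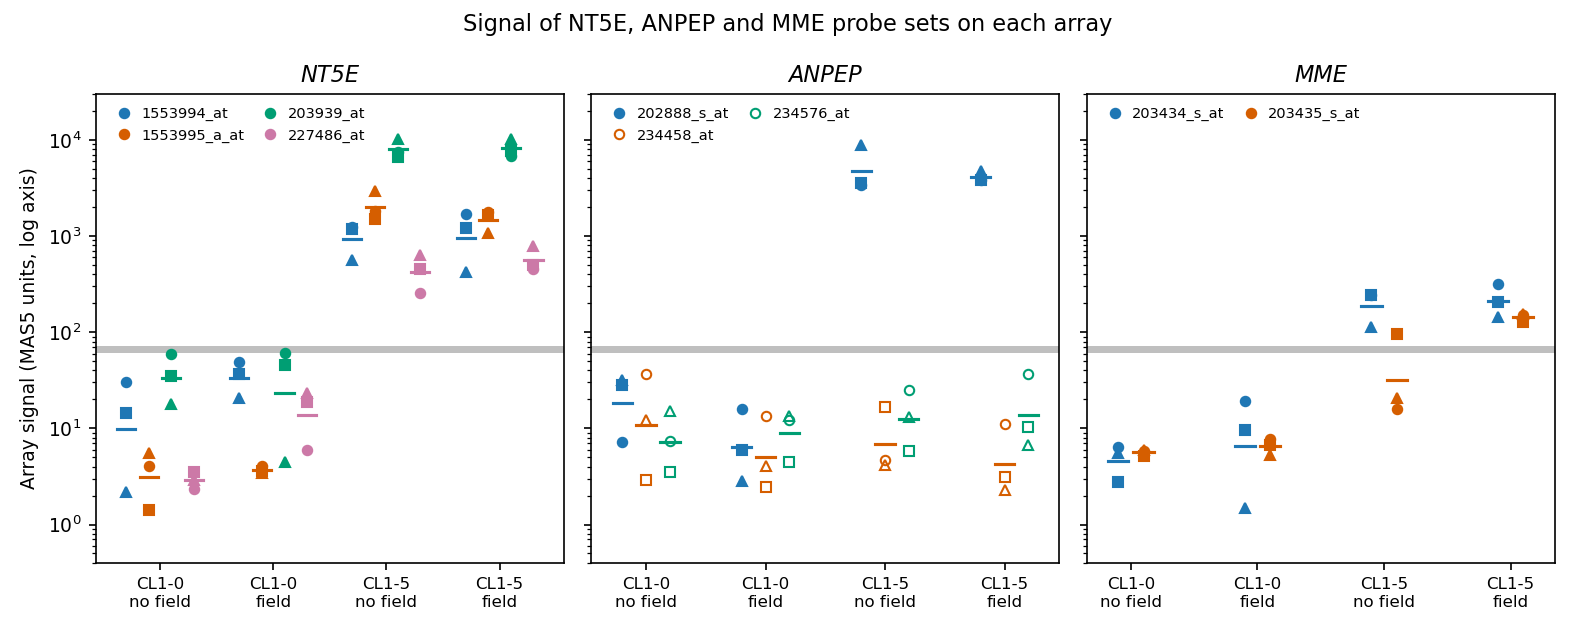
Deposited signal (log axis) of each probe set of NT5E, ANPEP and MME on the 12 arrays, by line and field. Triangles, circles and squares are replicates 1, 2 and 3, and filled symbols are probe sets that passed the filter. Short bars are geometric means of 3 arrays with values under 1 set to 1. The grey band is the range of the array medians, 60.7 to 72.4. Every NT5E signal in CL1-0 is below the median of its own array, the highest (60.9) at the lower edge of the band, and every one in CL1-5 is above the band, while 2 of the 3 ANPEP probe sets lie under it in both lines.

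ENTPD1, which starts the same chain from ATP, showed no such gap. Its probe set 209473_at, the one of 4 that passed the filter, read 77.4, 47.3 and 92.4 in CL1-0 without field and 31.8, 67.3 and 73.3 under field. In CL1-5 it read 55.2, 79.4 and 56.1 without field and 57.9, 106 and 84.9 under field. These signals straddle the array median in both lines, with 4 of 6 CL1-0 arrays and 3 of 6 CL1-5 arrays above it, and the groups overlap. The log2 difference of CL1-5 from CL1-0 was -0.15 without field and 0.58 under field (SE 0.47 each). The other ENTPD1 probe sets read at most 72 (207691_x_at), 22.8 (209474_s_at) and 26.0 (228585_at), and 1 of their 36 signals exceeded its array median.

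ENTPD3, a related ATP and ADP hydrolase, was low. Probe set 206191_at read 14.1, 13.2 and 7.63 in CL1-0 without field, 53.7, 33.0 and 20.2 under field, 73.9, 19.3 and 52.2 in CL1-5 without field and 26.4, 4.58 and 10.8 under field. Of these 12 signals only the 73.9 exceeded its array median. Probe set 1555118_at ran from 1.23 to 28.7, below the median throughout.

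ENPP1 was measured in both lines and was higher in CL1-5 on 2 of the 3 probe sets that passed. On 205066_s_at the signals were 339, 292 and 207 in CL1-0 without field and 328, 243 and 311 under field, against 1108, 582 and 621 in CL1-5 without field and 1242, 538 and 713 under field. The lines did not overlap, and CL1-5 was 2.7-fold higher without field (log2 1.43 ± 0.36, SE) and 2.68-fold higher under field (log2 1.42 ± 0.36, SE). On 229088_at CL1-0 read 142, 113 and 132 without field and 90.9, 127 and 140 under field, and CL1-5 read 268, 222 and 222 and then 269, 243 and 353. CL1-5 was 1.84-fold and 2.42-fold higher there, again without overlap. The third, 228952_at, did not follow: CL1-0 ran from 114 to 215 and CL1-5 from 75.9 to 174, with log2 differences of -0.19 and -0.37 (SE 0.38 each). The fourth, 205065_at, did not pass the filter and ran from 6.11 to 73.5. ENPP2, its secreted relative, was below the array median on all 12 arrays with both probe sets, at 2.55 to 39.5 (209392_at) and 8.04 to 56.2 (210839_s_at).

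ADA, which removes adenosine, was bright in every group and the one member with a probe set that was lower in CL1-5 without overlap. On 216705_s_at CL1-0 read 2031, 1782 and 1797 without field and 2368, 1506 and 1882 under field, while CL1-5 read 1298, 810 and 931 without field and 2021, 1406 and 1406 under field. Without field the lines did not overlap, with CL1-5 lower by log2 -0.91 ± 0.25 (SE). Under field they overlapped, at -0.25 ± 0.25 (SE). On 204639_at CL1-0 read 1045, 2121 and 2232 without field and 1505, 1878 and 2220 under field, and CL1-5 read 742, 1225 and 1533 and then 1050, 1495 and 2017. The lines overlapped in both settings there, with differences of -0.61 and -0.33 (SE 0.37 each).

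**Figure D2:**
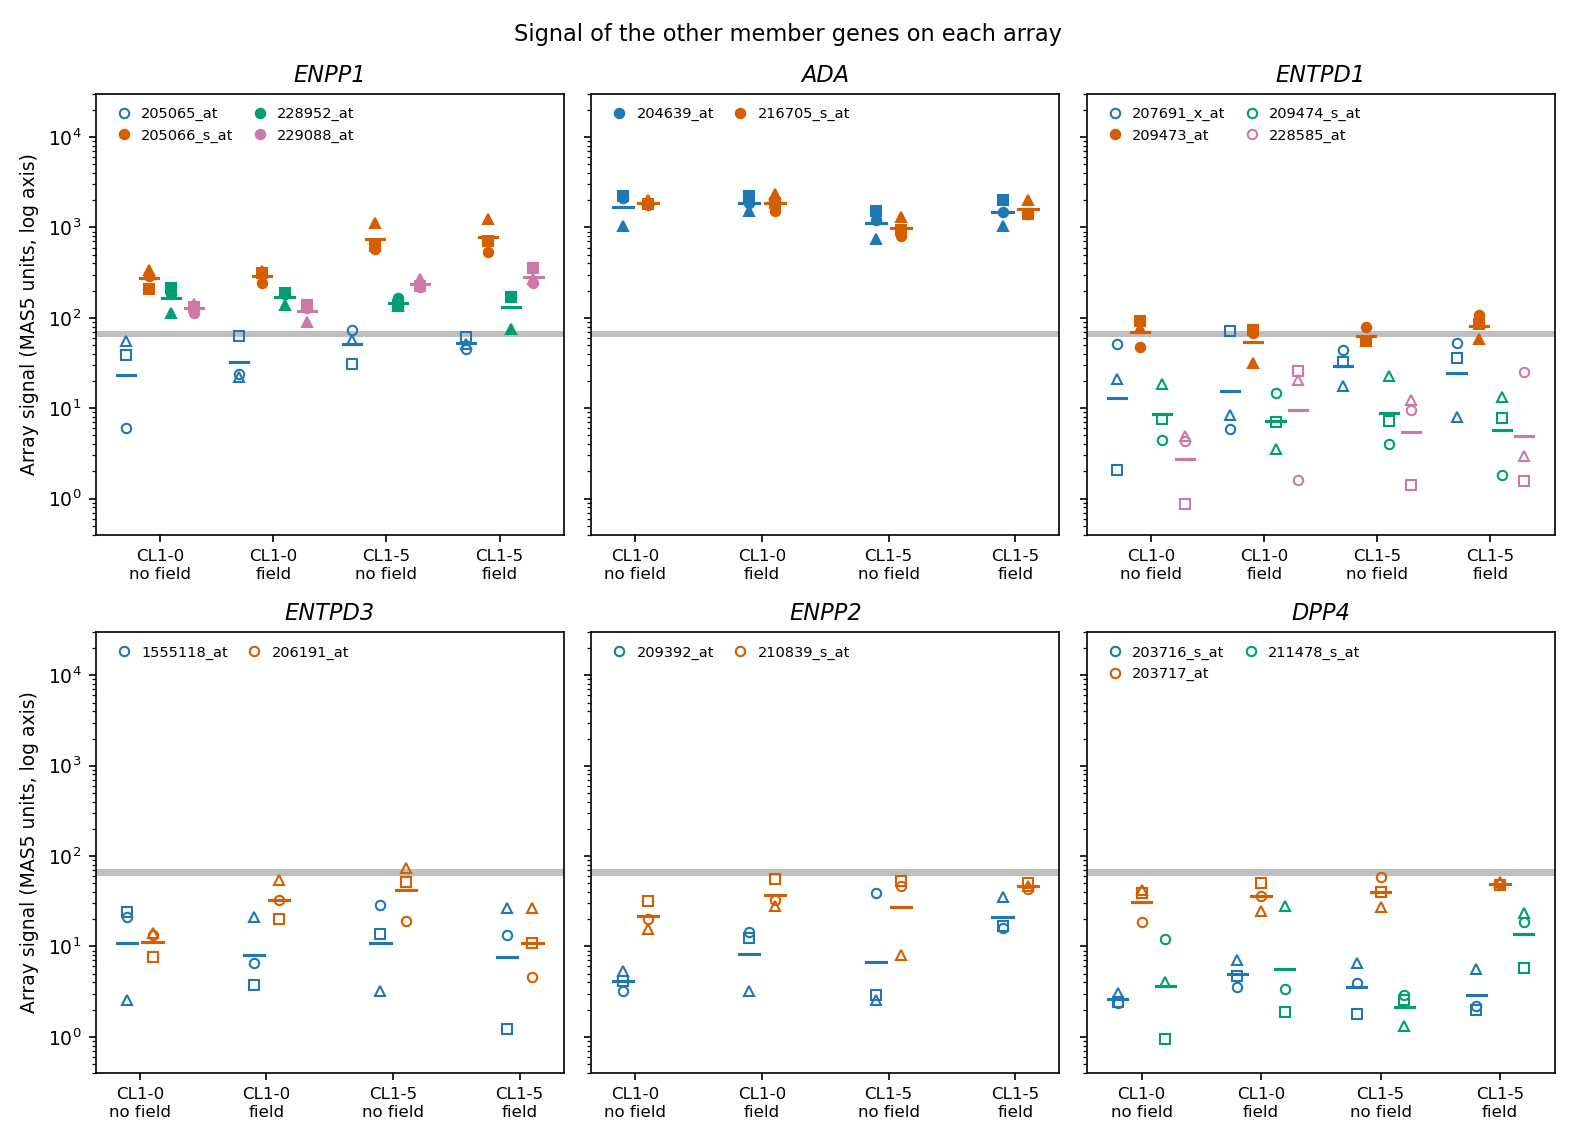
Deposited signal (log axis) of each probe set of ENPP1, ADA, ENTPD1, ENTPD3, ENPP2 and DPP4 on the 12 arrays. The symbols, bars and grey band are as in the plot of NT5E, ANPEP and MME. Both ADA probe sets lie above the band on every array, ENTPD1 209473_at lies across it, and the highest of all ENPP2 and DPP4 signals is 58.9, under it.

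Among the peptidases, ANPEP (aminopeptidase N) had a gap like that of NT5E on one probe set. On 202888_s_at CL1-0 read 31.5, 7.16 and 28.3 without field and 2.81, 15.7 and 6.02 under field, against 8842, 3396 and 3530 in CL1-5 without field and 4720, 3843 and 3801 under field. All CL1-0 arrays were below their medians and all CL1-5 arrays above, which makes CL1-5 at least 74.9-fold higher without field and at least 62.2-fold higher under field. The log2 means were 4.21 ± 1.19 and 2.69 ± 1.24 in CL1-0 and 12.21 ± 0.78 and 12 ± 0.18 in CL1-5 (SD, n = 3 each). The other probe sets, 234458_at and 234576_at, are annotated to another sequence record and were below the array median on all 12 arrays, at 2.3 to 36.3 and 3.48 to 37.0. The ANPEP result thus rests on a single probe set.

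MME (neprilysin) was higher in CL1-5 at lower signals. On 203434_s_at CL1-0 read 5.48, 6.45 and 2.78 without field and 1.5, 19.1 and 9.61 under field, and CL1-5 read 114, 241 and 245 and then 144, 314 and 207. CL1-5 was at least 2.99-fold higher without field and at least 3.2-fold higher under field. On 203435_s_at CL1-0 stayed between 5.13 and 7.76, while CL1-5 read 20.5, 15.9 and 96.7 without field and 153, 150 and 127 under field. Without field only the third of those CL1-5 signals exceeded its array median. The fold with low signals raised was 1.22 there, which is not a lower bound, since low signals were raised in both lines. Under field CL1-5 was at least 2.16-fold higher.

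DPP4, the surface anchor of ADA, was below the array median on all 12 arrays with its 3 probe sets. Signals were 1.77 to 7.13 (203716_s_at), 18.5 to 58.9 (203717_at) and 0.937 to 27.7 (211478_s_at). A low signal gives only an upper limit in these units, and with 3 arrays per group differences within that range are not interpreted.

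Over the 13 probe sets that passed the filter, 9 were higher in CL1-5 without overlap in both settings: the 4 of NT5E, 1 of ANPEP, 2 of MME and 2 of ENPP1. Over all 31890 probe sets that passed, 9.99% were higher in CL1-5 in both settings and 9.96% were lower. In the setting without field alone the members gave 9 higher and 1 lower (background 14.3% and 14.5%), and under field 9 higher and 0 lower (14.6% and 16.2%). These counts follow from how the genes were picked, and 7 of the 9 passed the filter through CL1-5 alone. With 1 probe set per gene, 4 of 6 genes were higher in both settings and 0 lower, beside 12% and 13% of 13837 genes tested.

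Among the endothelial, fibroblast and leukocyte markers that passed the filter, PECAM1 alone did not overlap between the lines in both settings. The summed signal of 5 endothelial markers (PECAM1, CDH5, VWF, KDR and TEK) was 181 to 230 in CL1-0 and 372 to 1788 in CL1-5, of which PECAM1 read 66.9 to 168 and 174 to 1559. In CL1-5, PECAM1 read 1120 to 1559 in replicate 1 and 174 to 357 in replicates 2 and 3. KDR read 28.0 to 89.2 in CL1-0 and 59.6 to 167 in CL1-5, with overlapping ranges. CDH5, VWF and TEK were below the array median on all 12 arrays. The summed signal of 6 fibroblast markers was 460 to 905 in CL1-0 and 323 to 534 in CL1-5, with overlapping ranges. The part of endothelial genes in the NT5E, ANPEP and MME differences was not tested.

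None of the field responses of the members passed the test. With limma over all probe sets that passed the filter, 0 of 13 member probe sets had an adjusted p under 0.05 for the field in CL1-0, in CL1-5, averaged over the lines, or for the difference between the lines. The background was the same: 0 of 31890 probe sets, 0.0%, passed in any of the 4 comparisons. At an unadjusted limma p under 0.05 the members gave 2, 2, 1 and 0. All probe sets gave 337 (1.06%), 531 (1.67%), 296 (0.928%) and 382 (1.2%). The 2 in CL1-0 were NT5E 227486_at and ANPEP 202888_s_at, and the 1 on average was NT5E 227486_at. Both were among the 7 member probe sets below the array median on every CL1-0 array. The CL1-0 and averaged counts are therefore no measure of an excess. Groups that do not overlap were found for 1 member probe set in CL1-0, higher under field (background 2.16%), and for 2 in CL1-5, both higher under field (background 2.64%). None was lower without overlap (background 1.52% in CL1-0 and 2.83% in CL1-5).

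The largest change with a measured signal on both sides was in ADA. In CL1-5 its probe set 216705_s_at went from 1298, 810 and 931 to 2021, 1406 and 1406 under field, without overlap, a log2 change of 0.68 ± 0.25 (SE; limma adjusted p = 1.0). Same-numbered replicates differed by 0.64, 0.80 and 0.60, so 3 of 3 were higher, and without replicate 1 the change was 0.70. In CL1-0 the same probe set changed by 0.01 ± 0.25 (SE), and the difference of the field effect between the lines was 0.66 ± 0.36 (SE; limma adjusted p = 1.0), which did not pass. The second ADA probe set, 204639_at, read 0.39 ± 0.37 (SE; limma adjusted p = 1.0) in CL1-5, with same-numbered differences of 0.50, 0.29 and 0.40, and its groups overlapped. Same-numbered replicates varied together over all probe sets that passed the filter, and so did replicates 2 and 3 across numbers. With the replicate number as a block the smallest limma adjusted p of either ADA probe set in CL1-5 was 0.725.

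MME probe set 203435_s_at went from 20.5, 15.9 and 96.7 to 153, 150 and 127 in CL1-5, a log2 change of 2.18 ± 0.87 (SE; limma adjusted p = 1.0). Same-numbered replicates differed by 2.90, 3.24 and 0.39, and without replicate 1 the change was 1.82. Since 2 of the 3 signals without field were below the array median, the change was 0.89 once low signals were raised to that median. The brighter MME probe set, 203434_s_at, changed by 0.16 ± 0.89 (SE; limma adjusted p = 1.0), and its groups overlapped.

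NT5E and ANPEP, so far apart between the lines, did not pass the field test in CL1-5. NT5E 203939_at changed by 0.01 ± 0.79 (SE) and the other NT5E probe sets by 0.03 ± 0.84, -0.45 ± 0.52 and 0.44 ± 0.59 (SE), in the order 1553994_at, 1553995_a_at, 227486_at. ANPEP 202888_s_at changed by -0.21 ± 0.68 (SE). The 3 passing ENPP1 probe sets changed by 0.08 ± 0.36 (205066_s_at), -0.14 ± 0.38 (228952_at) and 0.27 ± 0.28 (229088_at), and ENTPD1 209473_at by 0.36 ± 0.47 (SE each). Each of these groups overlapped. With 3 arrays per group even the ADA 216705_s_at change of 0.68 ± 0.25 (SE) did not pass, so changes larger than these errors may also have gone undetected.

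In CL1-0 the members with a measured signal changed by at most 0.37 in size on the log2 scale: ENTPD1 209473_at by -0.37 ± 0.47, ENPP1 229088_at by -0.13 ± 0.28, ENPP1 205066_s_at by 0.09 ± 0.36, ENPP1 228952_at by 0.03 ± 0.38 and ADA 204639_at by 0.11 ± 0.37 (SE each). NT5E 227486_at read 2.94, 2.37 and 3.54 without field and 23.3, 5.95 and 18.9 under field, without overlap, but all 6 signals were below the array median. Its change of 2.25 ± 0.59 (SE; limma adjusted p = 1.0) became 0.06 with low signals raised. ANPEP 202888_s_at in CL1-0 changed by -1.53 ± 0.68 (SE; limma adjusted p = 1.0), likewise among signals below the median, and by 0.06 with them raised.

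**Figure D3:**
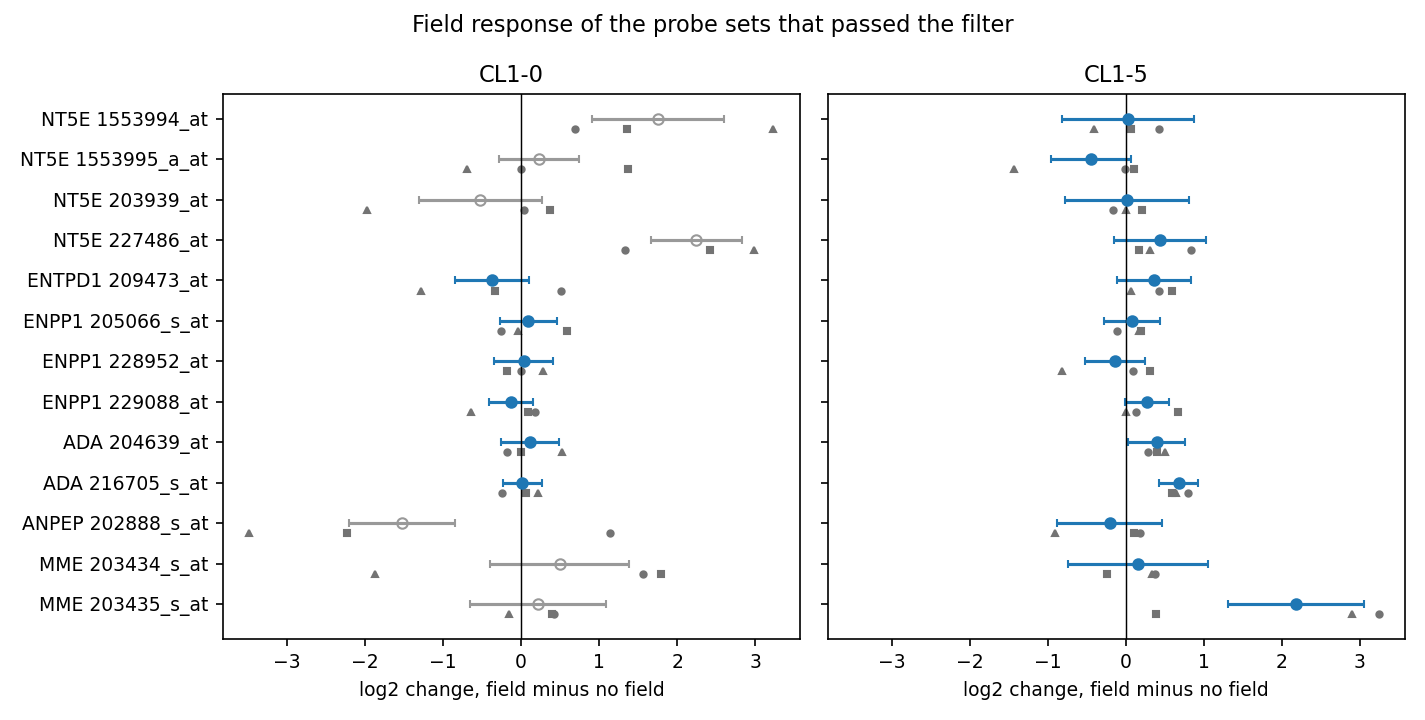
Log2 change under field (field minus no field) of the 13 member probe sets that passed the filter, in CL1-0 and in CL1-5; points with bars are the limma estimate ± SE, small symbols are the differences between same-numbered replicates, and open grey points mark a line in which the probe set exceeded the array median on fewer than 3 of 6 arrays. ADA 216705_s_at in CL1-5, at 0.68, has 3 of 3 replicate differences above 0 and the bars of NT5E and ANPEP in CL1-5 span 0.

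The arrays without the spike-in signal, replicate 1 of each group, stood apart for several members within a line, in directions that differed between probe sets of the same gene. Of 26 comparisons (13 probe sets in each of 2 lines), replicate 1 did not overlap replicates 2 and 3 in 13, 6 higher and 7 lower. The share over all probe sets was not computed, so this count is not a result about the members. In CL1-5, NT5E 203939_at read 10302 to 10330 in replicate 1 and 6714 to 7718 in the others, while NT5E 1553994_at read 426 to 567 and 1170 to 1686. ADA 204639_at was lower in replicate 1 (742 to 1050 against 1225 to 2017 in CL1-5), as was MME 203434_s_at (114 to 144 against 207 to 314), while ENPP1 205066_s_at (1108 to 1242 against 538 to 713) and ANPEP 202888_s_at (4720 to 8842 against 3396 to 3843) were higher. With low signals raised to the array median and replicate 1 left out, a combination chosen after seeing the data, NT5E 203939_at was at least 114-fold higher in CL1-5 without field and 111-fold under field. The other NT5E probe sets gave at least 19.4-fold and 22.1-fold (1553994_at), 26.6-fold and 26.4-fold (1553995_a_at) and 5.46-fold and 7.41-fold (227486_at). ANPEP 202888_s_at gave at least 55.6-fold and 58.8-fold, and MME 203434_s_at at least 3.9-fold and 3.93-fold. MME 203435_s_at gave 1.29-fold without field, which is not a lower bound, and at least 2.12-fold under field. Among probe sets measured in both lines, ENPP1 205066_s_at was higher by log2 1.29 and 1.17, ENPP1 229088_at by 0.86 and 1.13. ENPP1 228952_at read -0.40 and -0.12, ADA 216705_s_at -1.04 and -0.26, and ADA 204639_at -0.67 and -0.23. ENTPD1 209473_at, which straddles the median, read -0.08 and 0.44, or 0.01 and 0.44 without raising. Apart from ENTPD1 without field, each of these kept its direction without replicate 1.

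The genes with a pattern over the 12 arrays most like that of NT5E 203939_at were ALG9 (Pearson r 0.996), HRH1 (0.994), RIN2 (0.993), VCPIP1 (0.992) and S100A16 (0.991), out of 282 genes at 0.95 or above. All 12 arrays share the split by line. Within the 6 CL1-5 arrays the r of these genes with NT5E, in the same order, was -0.31, -0.36, -0.41, 0.38 and 0.72, and within the 6 CL1-0 arrays, where NT5E is below the array median, 0.99, 0.93, 0.95, 0.95 and 0.85. For ANPEP 202888_s_at they were FLI1 (0.994), SLC2A10 (0.987), SH3PXD2A (0.985), LNCOC1 (0.984) and SERPINB9 (0.981), out of 186 genes, with r within CL1-5 of 0.82, 0.77, 0.69, 0.70 and -0.63 and within CL1-0 of 0.88, 0.79, 0.72, 0.71 and 0.73. These values are descriptions of 12 arrays and carry no test. NT5E 203939_at read 4.51 to 17.7 in replicate 1 of CL1-0 and 34.9 to 60.9 in the others, and was higher in replicate 1 of CL1-5. The part of that split in the r values was not tested.

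Genes that act beside these enzymes were taken from 7 lists, with 97 of 106 genes on the array and 61 that passed the filter, each by its brightest probe set. None passed the limma test in any of the 4 field comparisons, and unadjusted p fell under 0.05 for 0 in CL1-0, 2 in CL1-5, 1 on average and 0 for the difference. In the line difference, 12 of the 61 were higher in CL1-5 in both settings without overlap (19.7%, beside 12% of all genes) and 7 were lower (11.5%, beside 13%). Of those 12, CD38, TRHDE, ENPEP and LVRN were below the array median on all 6 CL1-0 arrays and so passed the filter only through CL1-5, which makes the share no measure of an excess.

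Of 9 genes on the list of other ectonucleotidases, whose place in the cell was not checked, 1 was higher and 1 lower in CL1-5. CD38, which cleaves NAD outside the cell, read 5.37 to 9.8 in CL1-0 and 82.9 to 166 in CL1-5, at least 1.54-fold higher without field and 2.09-fold under field. ENPP5 read 67.4 to 396 in CL1-0 and 31.4 to 81.9 in CL1-5, at least 2.68-fold lower without field and 2.19-fold under field. Of 10 genes for adenosine receptors, transport and salvage, 2 were higher and 1 lower. ADORA2B, the low-affinity adenosine receptor, read 1197 to 1713 in CL1-0 and 2740 to 5583 in CL1-5 (log2 1.37 and 1.54). ADK, the kinase that turns adenosine back into AMP, was higher by 0.60 and 0.78. SLC29A2, an equilibrative nucleoside transporter, was lower, at 329 to 1399 in CL1-0 and 80.8 to 136 in CL1-5 (log2 -2.59 and -2.79). Its CL1-0 signals were 1316 and 1399 in replicate 1 and 329 to 535 in the others. Of 9 P2 receptors and pannexins, P2RX5 alone did not overlap between the lines in both settings, and was higher in CL1-5 by 0.35 and 0.86.

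Of 13 other ectopeptidases, 3 were higher (TRHDE, ENPEP and LVRN, each at most 51.8 in CL1-0 and between 37.7 and 137 in CL1-5) and 2 lower. With low signals raised, LVRN was at least 1.51-fold higher without field and 2.00-fold under field. TRHDE gave 1.30-fold and 1.15-fold, and ENPEP 1.39-fold and 1.41-fold. The folds of TRHDE and ENPEP are not lower bounds, since TRHDE exceeded the array median on only 3 CL1-5 arrays and ENPEP on 4. MMEL1 was lower by -0.49 and -1.15 and ECE2, an endothelin-converting enzyme, by -0.43 and -0.53. Of 7 genes for peptides cut by these enzymes and for their receptors, NMB (neuromedin B) was higher by 0.99 and 1.61. AGTR1, an angiotensin receptor, was lower by -2.59 and -1.75. In CL1-0 without field AGTR1 read 847 in replicate 1 against 429 and 171 in the others. Of 6 genes of lysophosphatidic acid signalling, the product of ENPP2, the receptor LPAR3 was higher, at 86.6 to 354 in CL1-0 and 443 to 1955 in CL1-5 (log2 2.79 and 2.77), and the phosphatase PLPP1 lower by -1.40 and -1.32. Of 7 genes of pyrophosphate and cGAMP handling, in which ENPP1 also acts, 3 were higher and 1 lower. STING1, the cGAMP sensor, read 9.1 to 95.7 in CL1-0 and 740 to 1932 in CL1-5, at least 13.2-fold and 13.8-fold higher. SLC20A1, a phosphate transporter, was higher by 1.70 and 1.84, ANKH, which carries pyrophosphate precursors out of the cell, by 1.70 and 1.35, and CGAS, which makes cGAMP, was lower by -0.50 and -0.41.

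**Figure D4:**
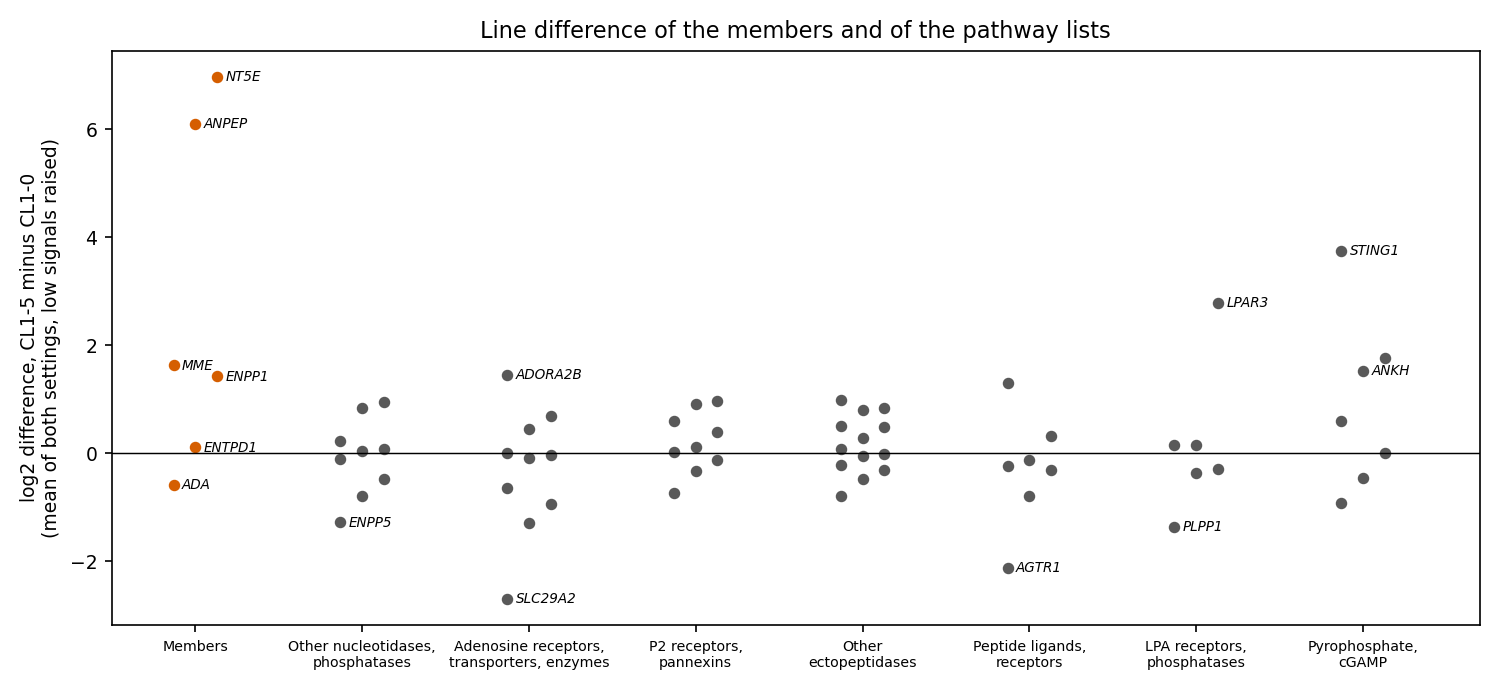
Log2 difference of CL1-5 from CL1-0, averaged over both field settings. Shown are the 6 members (orange) and the genes of the 7 lists (grey) that passed the filter. Each point is 1 gene at its brightest probe set. Signals below the array median are raised to it. A point with a low line is a bound only where the other line was above the median on all its arrays. NT5E and ANPEP lie farthest above 0, STING1 is the highest of the listed genes, and SLC29A2 lies farthest below.

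The smallest p values for the averaged field effect, the 2 genes of each list chosen by that rank, were not below the threshold after adjustment (limma adjusted p = 1.0 for each). They were ALPG at -0.26 ± 0.29 and ENPP3 at -0.19 ± 0.26 among the ectonucleotidases, and SLC29A3 at 0.41 ± 0.24 and SLC29A1 at -0.22 ± 0.27 in adenosine handling (log2 change ± SE). Among the P2 receptors and pannexins they were P2RY6, a UDP receptor, at 1.61 ± 0.67 (0.43 with low signals raised, since its 3 CL1-5 signals without field were all low) and PANX1, a channel that releases ATP, at 0.31 ± 0.19. PHEX read -1.22 ± 0.70 and MMEL1 -0.38 ± 0.24 among the peptidases, and EDNRB -1.03 ± 0.80 and GRPR 0.42 ± 0.65 among the peptide receptors. LPAR2 read 1.01 ± 0.59 and LPAR3 -0.41 ± 0.42 in lysophosphatidic acid signalling, and CGAS -0.16 ± 0.17 and ANKH 0.12 ± 0.25 in pyrophosphate and cGAMP handling. With low signals raised, PHEX became -0.17, EDNRB -0.15, GRPR 0.14 and LPAR2 0.58.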

How the data were processed

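Per the submitters' processing notes, the authors made the deposited values with MAS5, as probe-set signals in linear intensity units. The version of MAS5 is not given in the sources used here. Without its lowest and highest 2%, each array averaged 500.07 to 500.08, and no further scaling was applied. Signals under 1 were set to 1 before log2; 62 control probe sets were left out, and 31890 probe sets above their array's median on at least 3 arrays were kept. A fit of 4 group means to 12 arrays (limma 3.58.1, eBayes with trend, R 4.3.3; tested on simulated data) gave differences, SE and Benjamini-Hochberg adjusted p over all 31890, with a threshold of 0.05. The median SE for 2 groups was 0.434. Precision is limited by how few arrays each group has and by the split of replicate 1, which this fit left in the error.

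Every probe set of each member was described. Symbols came from the platform annotation: 41097 probe sets carry 1, 1801 several and 11777 none. The members and gene lists were chosen with earlier results of these data known. Named list genes were the 2 with the smallest p for the averaged field effect, and up to 3 per direction with the largest mean line difference among genes not overlapping in either setting. For NT5E and ANPEP, the 5 genes with the highest correlation were named.

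Deviations from the group means were correlated between same-numbered arrays. Pearson r was 0.665, 0.396 and 0.385 for the CL1-0 pairs and 0.621, 0.454 and 0.270 for those of CL1-5. The numbers were therefore used to pair arrays in the same-numbered differences and in the alternative with the replicate block. The main fit of group means did not use the pairing, so its SE and adjusted p are unpaired. The labels do not state what a number shares. Replicate 1 is also the set without spike-in signal. Alternatives were 2 other normalizations, a pseudocount, raised low values, 2 other filters, 1 probe set per gene, no trend, only the groups compared, blocks for replicate number and spike-in, only spike-in arrays, and leaving out each array.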

Additional observations from a re-analysis of the deposited data

Results flagged for a closer look

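ENTPD3 206191_at changed in opposite directions in the lines: the same-numbered differences under field were 1.93, 1.32 and 1.41 in CL1-0 and -1.48, -2.07 and -2.27 in CL1-5, so 3 of 3 replicates moved up in one line and 3 of 3 moved down in the other. The difference of the field effect between the lines, CL1-5 minus CL1-0, was -3.49 on the log2 scale. The probe set did not pass the filter, since 11 of its 12 signals were below the array median. In a limma fit without the filter the adjusted p of that difference was 1.0. With low signals raised to the array median the change was 0.06 in CL1-0 and -0.05 in CL1-5.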

How the results depend on the processing

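Over 578 values of 25 member field changes under the alternatives, none passed the threshold, and the smallest adjusted p (limma) was 0.725, with the replicate block. Over all probe sets, the field in CL1-0 gave 1 call with the replicate block, 1 with a block for the spike-in batch, and 0 to 1 with single arrays left out (1 without replicate 3 of CL1-0 under field). The field in CL1-5 gave 1 with a block for the spike-in batch, 1 with only the spike-in arrays, and 0 to 1 with single arrays left out (1 without replicate 1 of CL1-5 under field). The averaged effect and the difference between the lines gave 0 throughout, and no call was of a member. The number of member probe sets with lines that do not overlap, in either direction, was 10 without field and 9 under field, and became 5 without field and 4 under field with 1 probe set per gene, and 10 to 12 and 9 to 11 with single arrays left out.

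Small changes turned sign. With quantile normalization these were ENPP1 228952_at in CL1-0 (-0.0103), NT5E 203939_at in CL1-5 (-0.0310) and the difference between lines of ENPP1 205066_s_at (0.0322). With centring on the median they were ADA 216705_s_at (-0.0460) and ENPP1 228952_at (-0.0276) in CL1-0 and the difference of ENPP1 205066_s_at (0.0723). The average of ENTPD1 209473_at was 0.00110 with the pseudocount of 5.05, 0.0859 with low values raised and 0.297 with only spike-in arrays. Only spike-in arrays also gave, in CL1-0, ADA 204639_at -0.0915, ADA 216705_s_at -0.0883, ENTPD1 209473_at 0.0856, ENPP1 228952_at -0.0895 and ENPP1 229088_at 0.131, and in CL1-5 NT5E 1553995_a_at 0.0459, ANPEP 202888_s_at 0.142 and ENPP1 228952_at 0.197. The cause was not tested.

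With single arrays left out, the ranges that crossed 0 in CL1-0 were ADA 204639_at -0.24 to 0.31, ADA 216705_s_at -0.15 to 0.18, ENPP1 205066_s_at -0.11 to 0.25, ENPP1 228952_at -0.23 to 0.22, ENPP1 229088_at -0.26 to 0.058 and ENTPD1 209473_at -0.65 to 0.010. In CL1-5 they were ANPEP 202888_s_at -0.45 to 0.24, ENPP1 205066_s_at -0.25 to 0.38, ENPP1 228952_at -0.35 to 0.25, MME 203434_s_at -0.20 to 0.43, NT5E 1553994_at -0.38 to 0.61 and NT5E 203939_at -0.16 to 0.19. The average of ENPP1 205066_s_at ran from -0.079 to 0.24, its difference from -0.35 to 0.28, and the average of ENTPD1 209473_at from -0.14 to 0.19.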
